A study of Homo sapiens with 4 samples.

Results

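The genes described here form the glycolytic pathway and the transcriptional response to low oxygen: 36 genes listed by symbol, of which 33 were measured, out of 17687 named genes on the array. A gene was taken as measured where a probe set carried its symbol alone in the platform annotation. CA9, PFKFB4 and SLC16A3 had no such probe set and are not analysed here. By role, the 33 genes were 17 glycolytic enzymes including the lactate dehydrogenases, 2 regulators of glycolytic flux, 2 glucose transporters, 4 genes of oxygen sensing and 8 genes known to be induced by hypoxia. RNA was profiled on arrays from A549, a human cell line long grown from a lung adenocarcinoma. All 4 samples carried the short hairpin RNA against LDOC1. In 2 of them the mutant histone H2BK120R was also expressed, in which the lysine of histone H2B that accepts monoubiquitin is replaced by arginine, and the other 2 carried the vector. The cells grew in high-glucose medium with serum and puromycin and were harvested close to confluence. The labels describe no hypoxic treatment, so the values are those of standard culture. A line with wild-type H2B added, or with LDOC1 intact, was not analysed here, and the labels leave unstated whether a line is 1 clone or a pool. Nothing in them says that replicates came from separate cultures, so each p-value rests on a spread between arrays that may be technical.

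Glycolysis splits glucose into pyruvate in the cytosol, and lactate dehydrogenase turns pyruvate into lactate, which keeps the pathway running without oxygen. Hypoxia-inducible factors (HIF) are pairs of an oxygen-labile alpha subunit, encoded by HIF1A or EPAS1, and a stable partner. Prolyl hydroxylases such as EGLN1 and EGLN3 mark the alpha subunit for destruction when oxygen is present. The control is thus mainly on the protein, which the arrays did not measure. Once stable, HIF binds hypoxia response elements, whose core is often ACGTG, and raises transcription of most glycolytic enzymes together with genes for angiogenesis, mitophagy and collagen hydroxylation. Many enzymes on the list are therefore HIF targets themselves, and the glycolytic and hypoxia-induced groups are not independent in their regulation.

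The core letters ACGTG were looked for on both strands in RefSeq promoter windows (GRCh38.p14), each running from 250 bases before to 50 after an annotated start. Of the 33 genes 29 had such a window and 4 (SLC2A3, VEGFA, NDRG1 and BNIP3L) had no entry. Because genes can have several starts, the 29 genes held 52 windows. ACGTG was in 21 of the 52 (40.4%), against 21.4% of all 35116 windows, which belong to 27305 genes not filtered by type. Windows of a gene can overlap and share a match, as for PFKM, so these shares do not count independent units. The members' windows were richer in G and C, with a median of 69.7% against 58.7%. Among all windows whose GC content lay between 55.9% and 72.0%, the quartiles of the members, 26.3% held ACGTG, against 38.5% of the 26 member windows in that range. The looser core GCGTG, which can share end bases with a neighbouring ACGTG, was in 38.5% of member windows and 36.5% of all windows. Within the same GC range it was in 11 of 26 member windows (42.3%) and in 7326 of all 14656 windows, a higher share, while either core was in 65.4% of the member windows and 62.0% of all. A match describes the letters and is not evidence of binding. Stretches of 60 bases upstream of the start are shown for 6 genes that hold the core, from both groups the comparison turns on, with ACGTG or its reverse complement CACGT in capitals. They are LDHA at chr11:18394462-18394521 (plus strand), PGK1 at chrX:78104037-78104096 (plus strand) and ALDOC at chr17:28576896-28576955 (minus strand), and HK2 at chr2:74834051-74834110 (plus strand), BNIP3 at chr10:131982025-131982084 (minus strand) and P4HA1 at chr10:73096921-73096980 (minus strand).
LDHA: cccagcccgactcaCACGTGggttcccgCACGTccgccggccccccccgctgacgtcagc
PGK1: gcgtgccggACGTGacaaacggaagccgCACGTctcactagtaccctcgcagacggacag
ALDOC: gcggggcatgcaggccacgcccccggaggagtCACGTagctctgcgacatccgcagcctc
HK2: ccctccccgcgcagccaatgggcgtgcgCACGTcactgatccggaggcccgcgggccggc
BNIP3: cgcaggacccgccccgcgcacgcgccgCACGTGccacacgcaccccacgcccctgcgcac
P4HA1: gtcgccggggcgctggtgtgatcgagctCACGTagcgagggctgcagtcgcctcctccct
LDHA and PGK1, textbook HIF targets, carried 3 and 2 matches in these 60 bases, and the palindrome CACGTG counts as 2. No stretch overlapped another annotated gene.

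Log2 levels of 21448 probe sets were available per array. The array medians lay between 6.40 and 6.43, and pairwise Pearson correlations across probe sets between 0.990 and 0.994. Vector replicate 1 correlated least with the rest, at a mean of 0.9905, while the other arrays reached 0.9923 to 0.9926. Of 12 markers of A549 and lung adenocarcinoma epithelium, 10 were brighter than the median level of 6.41, KRT8, ALDH1A1 and AKR1C2 among them, while EPCAM and CLDN4 were dimmer. Markers of other cells were mostly dim: 1 of 7 leukocyte, 1 of 6 fibroblast, 0 of 6 endothelial and 2 of 9 alveolar type II markers were brighter than the median. Both alveolar markers were ABCA3, a lipid transporter of surfactant storage, at a mean of 8.03, and the surfactant gene SFTPD, at 6.48. The mean level of the alveolar markers was 4.91 to 5.05 on the arrays with H2BK120R and 4.82 to 4.88 on the vector arrays, and that of the endothelial markers 3.90 to 3.97 and 3.80 to 3.86. The leukocyte means were 5.20 to 5.54 and 5.05 to 5.29, and the fibroblast means 4.88 to 5.08 and 4.97 to 5.05. The part of these small shifts in the results was not tested. Brightness depends on the probes, so levels of different genes are not read as relative amounts of RNA, and the median is only a rough guide.

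No glycolytic or hypoxia response gene passed the test between cells with H2BK120R and vector cells. With p-values from limma adjusted by Benjamini-Hochberg, 0 of the 33 genes were called at 0.05, and over all 21448 probe sets the percentage called was 0 as well. The smallest adjusted p among the 33 was 0.745. As RNA was taken from whole cultures, a lower level in every cell and fewer cells with the transcript cannot be told apart. The 17 glycolytic enzymes had a median log2 difference (H2BK120R minus vector) of -0.015 and the 8 hypoxia-induced genes one of -0.02, a gap of 0.005, while the median over all probe sets was 0. Only 2 genes had an unadjusted p under 0.05, or 6.1% of the 33, against 6.70% of all probe sets. They were SLC2A3, a neuronal-type glucose transporter, on the higher side and P4HA2, a collagen prolyl 4-hydroxylase subunit, on the lower. The count of 2 changed with the array left out, and the share over all probe sets was not computed for those fits.

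The groups did not overlap, so that 2 arrays of one lay above the 2 of the other, for 12 of the 33 genes (36.4%), against 36.5% of all probe sets. In 5 of these H2BK120R was the higher group (HK2, ALDOC, SLC2A3, VEGFA, NDRG1) and in 7 the lower (PFKP, TPI1, PGK1, LDHA, LDHB, EPAS1, P4HA2). In all, 19 of 33 differences (57.6%) were below 0, against 49.4% of all probe sets. Only for 7 genes (21.2%, against 24.3% of all probe sets) was the difference between groups larger than the gap between replicates within either group. These were HK2, PFKP, ALDOC, LDHA, LDHB, SLC2A3 and P4HA2. For 17 genes the difference exceeded neither replicate gap. The shares of separated and of nominally significant genes were thus close to those of the array as a whole.

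**Figure D1:**
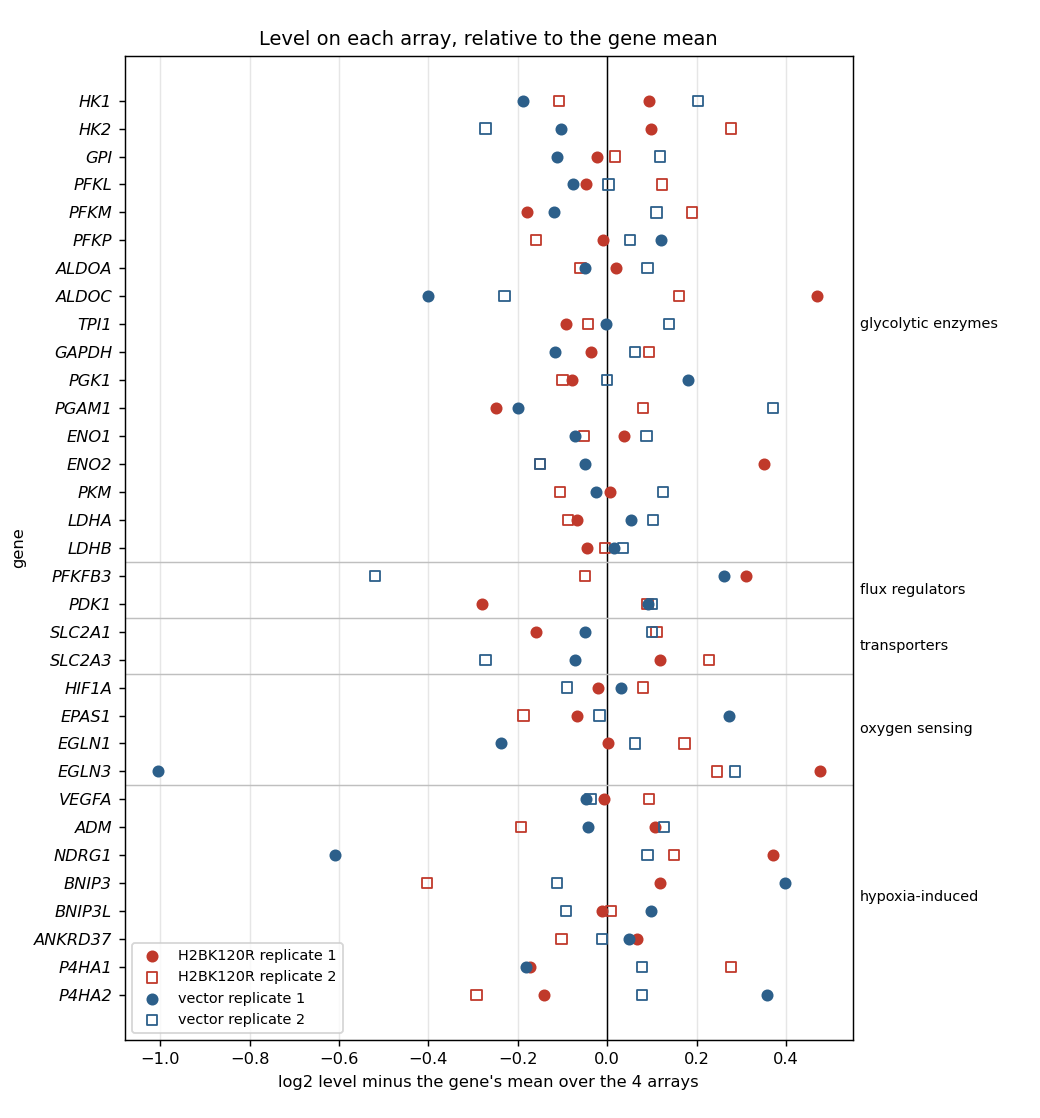
Log2 level of each of the 33 measured genes on each array (x axis), as the deviation from that gene's mean over the 4 arrays, ordered by role. Red marks are H2BK120R, blue marks are vector, filled circles replicate 1 and open squares replicate 2. Red and blue marks mix for most genes; the widest spread is that of EGLN3, where vector replicate 1 lies far to the left at a level of 3.42.

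The intervals show how large a difference these arrays leave room for. Each is a 95% interval for its gene alone and rests on a spread between arrays that may be technical. That spread is moderated with that of other probe sets. For 29 of the 33 genes the 95% confidence interval of the difference lay wholly between -1 and 1 on the log2 scale, less than a 2-fold change either way, which held for 75.5% of all probe sets. For 17 of them it lay between -0.5 and 0.5. The 4 genes whose intervals reached beyond 1 were HK2, ALDOC, EGLN3 and NDRG1, all dimmer than the median level. The 27 genes brighter than the median had standard errors of 0.09 to 0.269 and differences of -0.435 to 0.345. Of these differences 18 were below 0 and 9 above. The 6 dimmer ones (HK2, ALDOC, ENO2, EGLN3, NDRG1 and ANKRD37) had standard errors of 0.279 to 0.41, and 5 of the 6 differences were above 0, up to 0.72. The largest positive values of the list thus came from its least precise probe sets.

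**Figure D2:**
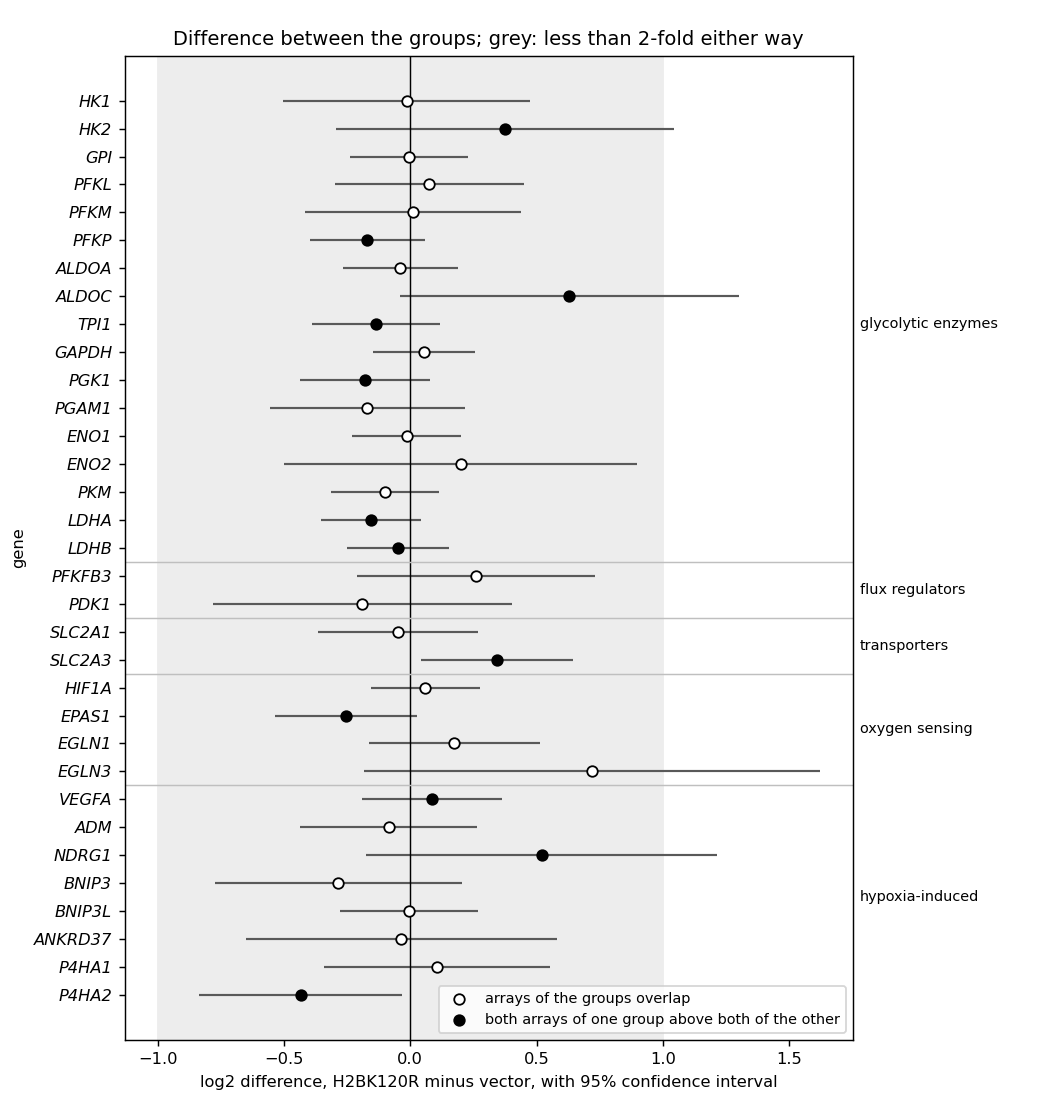
Log2 difference between H2BK120R and vector (x axis) with its 95% confidence interval from limma for each of the 33 genes, n = 2 arrays per group. Filled points are the 12 genes whose groups do not overlap; the grey band marks differences under 2-fold, which 29 of the intervals do not leave.

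In the preparatory steps of glycolysis, from glucose to the triose phosphates, 9 genes were measured, with 4 differences above 0, 5 below and a median of -0.005. HK2, the hexokinase isoform typical of tumours and insulin-responsive tissue, was at 4.75 and 4.93 with H2BK120R and at 4.55 and 4.38 with the vector. Both mutant arrays lay above both vector arrays, and the difference was 0.375 ± 0.304 (SE; limma adjusted p = 0.831). HK1, the widely expressed hexokinase, was at 8.54 ± 0.14 and 8.56 ± 0.28 (mean ± SD, n = 2 each). GPI, which interconverts glucose and fructose 6-phosphate, was at 15.91 ± 0.03 and 15.92 ± 0.16.

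Phosphofructokinase, the committed step, has liver, muscle and platelet forms. PFKP, the platelet form, was at 15.43 and 15.28 with H2BK120R and at 15.56 and 15.49 with the vector, without overlap. Its difference was -0.17 ± 0.10 (SE), a level 11.1% lower, with a limma adjusted p of 0.777. PFKL and PFKM, the liver and muscle forms, differed by 0.075 ± 0.170 and 0.01 ± 0.19, with mixed arrays, and that of PFKM was -0.034 after quantile normalization and -0.005 with equal array medians.

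Aldolase splits fructose 1,6-bisphosphate. ALDOC, the brain-type aldolase, was at 5.67 and 5.36 with the mutant and at 4.80 and 4.97 with the vector. This was the largest difference among the enzymes, 0.63 ± 0.31 (SE; unadjusted p = 0.0632, limma adjusted p = 0.746), and its groups did not overlap. ALDOA, the ubiquitous aldolase, was at 15.35 ± 0.06 and 15.39 ± 0.10 (SD, n = 2 each), a difference of -0.04. TPI1, which equilibrates the triose phosphates, was at 13.78 and 13.83 with H2BK120R and 13.87 and 14.01 with the vector. Its groups were separated by 0.04 at the closest arrays, and the difference was -0.135 ± 0.116.

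In the steps that yield ATP and lactate, 8 genes were measured, with 2 differences above 0, 6 below and a median of -0.075. GAPDH, which oxidises glyceraldehyde 3-phosphate and often serves as a reference gene, was at 18.09 and 18.22 with H2BK120R and at 18.01 and 18.19 with the vector. The groups overlapped, and the difference of 0.055 ± 0.092 (SE) became 0 after quantile normalization and was -0.035 without vector replicate 1. Quantile normalization gives equal ranks equal values, so among the brightest probe sets it can bring a difference to 0 by itself. PGK1, which makes the first ATP of the pathway, was at 13.86 and 13.84 with the mutant and 14.12 and 13.94 with the vector. Its difference was -0.18 ± 0.12, or 11.7% lower (limma adjusted p = 0.789), equal to the gap between the vector replicates. PGAM1, the phosphoglycerate mutase, was at 14.58 ± 0.23 and 14.75 ± 0.40 (SD, n = 2 each), and its vector replicates alone were 0.57 apart.

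ENO1, the ubiquitous enolase, was at 16.52 and 16.43 with H2BK120R and 16.41 and 16.57 with the vector, a difference of -0.015 ± 0.097. The neuron-type enolase ENO2 was at 4.96 ± 0.35 and 4.76 ± 0.07 (SD, n = 2 each). Its difference of 0.20 came from replicate 1 with H2BK120R, at 5.21, and was -0.05 without that array. PKM, the pyruvate kinase of most tissues, was at 16.45 and 16.34 against 16.42 and 16.57, with overlapping groups and a difference of -0.10 ± 0.10. Its splice forms are not told apart here. GAPDH, PGK1, PGAM1, ENO1, PKM and LDHA have processed pseudogenes or close copies that their probes may also read.

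The lactate dehydrogenases had the tightest replicates of the list. LDHA, the muscle-type subunit that favours lactate production, was at 16.38 and 16.36 with H2BK120R and at 16.50 and 16.55 with the vector. The groups were separate and the difference was -0.155 ± 0.090 (SE), a level 10.2% lower with a 95% confidence interval of -0.353 to 0.043 (limma adjusted p = 0.770). LDHB, the heart-type subunit, was at 16.14 and 16.18 against 16.20 and 16.22. Its groups were separate too, by 0.02 at the closest arrays, and the difference was -0.05 ± 0.09. With each array left out the difference was between -0.18 and -0.13 for LDHA and between -0.07 and -0.03 for LDHB. As the groups of both genes were separate, the sign could not turn in those fits.

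PFKFB3 and PDK1 steer the flux. PFKFB3 makes fructose 2,6-bisphosphate, the main activator of phosphofructokinase. PDK1 inhibits pyruvate dehydrogenase, which keeps pyruvate carbon out of the tricarboxylic acid cycle. PFKFB3 was at 14.14 and 13.78 with H2BK120R and 14.09 and 13.31 with the vector. The vector replicates were 0.78 apart, and the difference of 0.26 ± 0.22 (SE) became -0.13 without vector replicate 2. PDK1 was at 6.48 and 6.85 against 6.85 and 6.86, so that only replicate 1 with H2BK120R stood below the rest.

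Among the glucose transporters, SLC2A1 (GLUT1), the main carrier of most cancer cells and a HIF target, was at 12.23 and 12.50 with H2BK120R and 12.34 and 12.49 with the vector. The groups overlapped, and the difference was -0.05 ± 0.14 (SE). SLC2A3 (GLUT3), a carrier of higher affinity, was at 12.52 and 12.63 against 12.33 and 12.13. Both mutant arrays were above both vector arrays, with a difference of 0.345 ± 0.137, or 27.0% higher (95% confidence interval 0.044 to 0.646). The unadjusted p was 0.0285 and the limma adjusted p 0.745. The difference was between 0.245 and 0.445 with each array left out, where separate groups fix its sign. SLC2A3 has a near-identical copy, SLC2A14, so the probe sets of both may read either gene. SLC2A14 was at 13.30 and 13.37 with H2BK120R against 13.23 and 13.02, without overlap, a difference of 0.21 ± 0.13 (SE; limma adjusted p = 0.777).

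Of the oxygen sensing genes, HIF1A was at 15.99 and 16.09 with the mutant and 16.04 and 15.92 with the vector. The arrays were mixed, and the difference was 0.06 ± 0.10 (SE), with a 95% confidence interval of -0.157 to 0.277. EPAS1, which encodes HIF-2 alpha, was at 13.96 and 13.84 against 14.30 and 14.01. Its groups were separate and the difference was -0.255 ± 0.128, or 16.2% lower, with an unadjusted p of 0.0728 and a limma adjusted p of 0.758. Without vector replicate 1 it was -0.11.

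The prolyl hydroxylases are both sensors and HIF targets. EGLN1 (PHD2), the main one under normal oxygen, was at 11.88 and 12.05 with H2BK120R and 11.64 and 11.94 with the vector, a difference of 0.175 ± 0.154 (SE) with overlapping arrays. EGLN3 (PHD3), the more strongly inducible form, had the largest difference of all 33 genes, 0.72 ± 0.41 (limma adjusted p = 0.767). It rested on 1 array. EGLN3 was at 4.90 and 4.67 with the mutant, at 4.71 on vector replicate 2 and at 3.42 on vector replicate 1. The difference was 0.075 without vector replicate 1 and 1.365 without vector replicate 2.

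The 8 hypoxia-induced genes had 3 differences above 0 and 5 below, between -0.435 and 0.52. VEGFA, the angiogenic growth factor, was at 12.70 and 12.80 with H2BK120R and 12.66 and 12.67 with the vector. The groups were separate by 0.03 at the closest arrays, and the difference was 0.085 ± 0.126 (SE). ADM, which encodes the vasodilator adrenomedullin, was at 11.54 and 11.24 against 11.39 and 11.56, a difference of -0.085 ± 0.160. NDRG1, a stress-responsive gene often used as a hypoxia marker, was at 6.53 and 6.31 against 5.55 and 6.25. Its groups did not overlap and the difference was 0.52 ± 0.32 (limma adjusted p = 0.777), but 0.17 without vector replicate 1, the same low array as for EGLN3.

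BNIP3 and BNIP3L encode related mitophagy receptors. The level of BNIP3 averaged 10.32 ± 0.37 on the mutant and 10.61 ± 0.36 on the vector arrays (SD, n = 2 each), with replicates 0.52 and 0.51 apart, more than the difference of -0.285. BNIP3L was at 13.34 and 13.36 against 13.45 and 13.26, a difference of -0.005 ± 0.124 (SE). ANKRD37, an ankyrin repeat gene known as a HIF-1 target, was at 6.10 ± 0.12 and 6.13 ± 0.04 (SD, n = 2 each).

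The differences of the collagen prolyl 4-hydroxylase subunits P4HA1 and P4HA2 had opposite signs, but the sign for P4HA1 was not stable. P4HA2 was at 9.75 and 9.60 with H2BK120R and 10.25 and 9.97 with the vector, so both mutant arrays lay below. Its difference was -0.435 ± 0.182 (SE), 26.0% lower, with a 95% confidence interval of -0.836 to -0.034. The unadjusted p was 0.0362 and the limma adjusted p 0.745. With each array left out the difference was between -0.575 and -0.295, its sign again fixed by the separate groups. P4HA1 was at 9.88 ± 0.32 and 9.77 ± 0.18 (SD, n = 2 each), with mixed arrays and a difference of 0.105 ± 0.204. With each array left out it was between -0.12 and 0.33. The single promoter window listed for P4HA2 held neither ACGTG nor GCGTG.

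**Figure D3:**
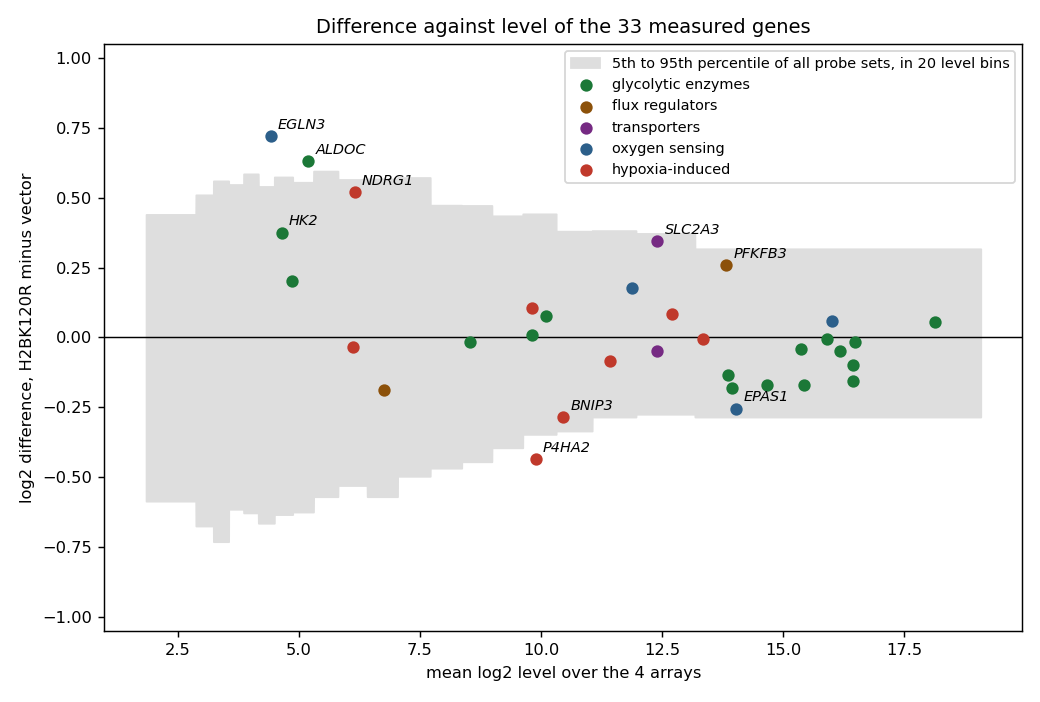
Log2 difference between H2BK120R and vector (y axis) against the mean log2 level over the 4 arrays (x axis) for the 33 genes, coloured by role, over the 5th to 95th percentile of all 21448 probe sets in 20 bins of level (grey). The grey band narrows with brightness, and 3 of the 33 genes lie outside it: ALDOC and EGLN3 above and P4HA2 below. By construction the lowest 5% and the highest 5% of all probe sets in a bin lie outside, so such a position is no sign of a change. Genes are named where the difference exceeds 0.24 in size.

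Read array by array, the glycolytic enzymes differed more between the vector replicates than between the groups. The median deviation of the 17 enzymes from their gene means was -0.023 and -0.042 on the arrays with H2BK120R, but -0.073 on vector replicate 1 and 0.087 on vector replicate 2. Both mutant arrays thus lay between the vector arrays. The median difference of the enzymes was accordingly -0.105 without vector replicate 1 and 0.11 without vector replicate 2. For the 8 hypoxia-induced genes the median deviations were 0.030 and -0.047 with the mutant and 0.002 and 0.033 with the vector. The gap between the medians of both groups of genes was between -0.09 and 0.143 with each array left out. When the hypoxia-induced group was widened to 14 measured genes by adding EGLN1, EGLN3, PDK1, PFKFB3, SLC2A1 and SLC2A3, its median difference was 0.04.

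The members also held 12 pairs of isozymes or close relatives, and the log2 ratio within an array was set beside the groups for each. Ratios show unequal change and not which gene changed, and no test is given, since the smallest two-sided p of an exact permutation test is 0.333 here. The groups were separate for 5 of the 12 ratios. Among levels of single probe sets this held for 36.5%, but ratios can spread otherwise, and no share over other gene pairs was computed. The pairs among PFKL, PFKM and PFKP share genes, so the 12 are not independent. ALDOC over ALDOA was -9.72 and -9.95 with H2BK120R and -10.52 and -10.49 with the vector, the widest separation of the 12 and a shift of 0.67. SLC2A3 over SLC2A1 was 0.29 and 0.13 against -0.01 and -0.36, a shift of 0.395. On the lower side, LDHA over LDHB was 0.24 and 0.18 against 0.30 and 0.33, and EPAS1 over HIF1A was -2.03 and -2.25 against -1.74 and -1.91. PFKP over PFKL was 5.37 and 5.05 against 5.53 and 5.38, separated by 0.01. The ratio of P4HA2 to P4HA1 shifted by -0.54, but its groups overlapped: the higher mutant array, 0.10, exceeded the lower vector array, 0.07. HK2 over HK1, ENO2 over ENO1, EGLN3 over EGLN1, BNIP3 over BNIP3L, and PFKM against PFKL or PFKP overlapped as well.

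**Figure D4:**
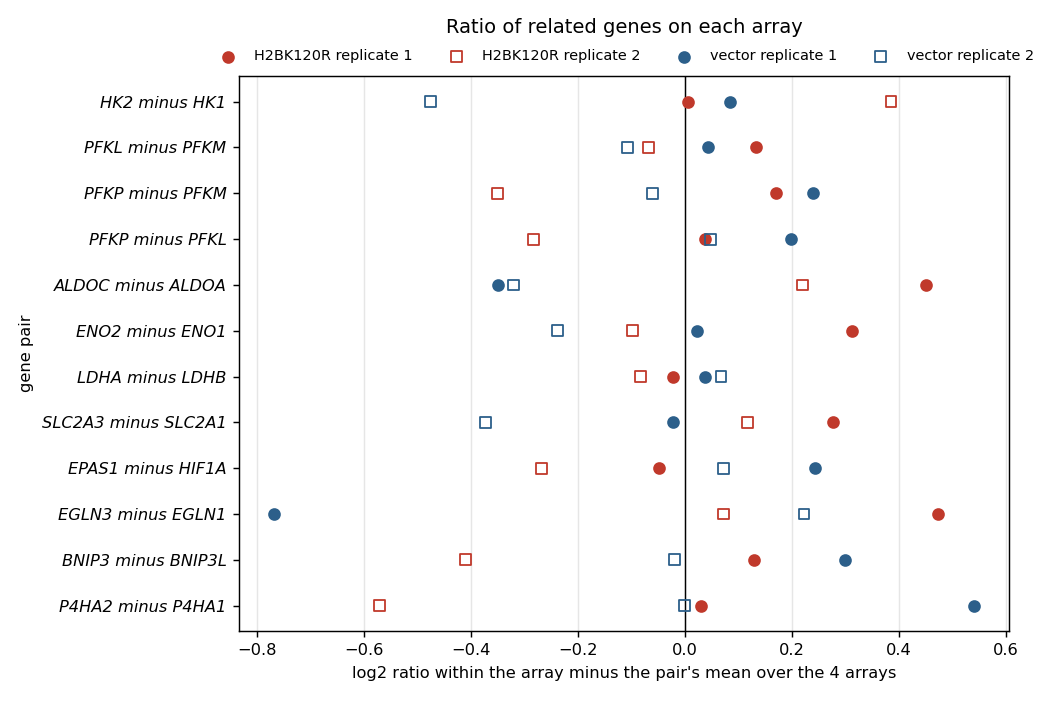
Log2 ratio of 12 pairs of related genes within each array (x axis), as the deviation from the pair's mean over the 4 arrays. Red marks are H2BK120R, blue marks are vector, filled circles replicate 1 and open squares replicate 2. For ALDOC over ALDOA both red marks lie right of both blue marks, 0.54 or more apart on the log2 scale.

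Position and promoter letters were set beside the differences as well. GAPDH, TPI1 and ENO2 lie near each other on chromosome 12, with 18 protein-coding genes between GAPDH and TPI1 and 1 between TPI1 and ENO2 in the RefSeq table, and their differences were 0.055, -0.135 and 0.20. Of the 17 genes with ACGTG in a promoter window, 8 differences were above 0 and 9 below, with a median of -0.005. Of the 12 genes with windows lacking it, 3 were above and 9 below, with a median of -0.05. The 4 genes with no window listed had 3 above, 1 below and a median of 0.215. Among the 6 genes whose promoter stretches are printed above, LDHA, PGK1 and BNIP3 had differences below 0 and ALDOC, HK2 and P4HA1 above. None of these differences passed the adjusted threshold in limma.

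Of 135 further genes measured in 8 lists of the surrounding pathways, 0 passed the adjusted threshold in limma, in either direction, and 7 (5.2%) had an unadjusted p under 0.05. Of 45 other hypoxia-induced genes 29 had differences above 0 and 16 below, with a median of 0.03. An unadjusted p under 0.05 was found for 4 of the 45 (8.9%), against 6.70% of all probe sets, with WSB1, ERO1A and PNRC1 higher and MIF lower. WSB1, a ubiquitin ligase adaptor, was at 10.14 and 10.17 with H2BK120R and 9.18 and 9.85 with the vector, a difference of 0.64 ± 0.22 (SE; limma adjusted p = 0.722). ERO1A, the oxidase that helps form disulfide bonds in the endoplasmic reticulum, differed by 0.305 ± 0.120, with separate groups. MIF, a cytokine gene, was at 13.09 and 13.00 against 13.42 and 13.29, a difference of -0.31 ± 0.12 with separate groups. The remaining HIF pathway factors numbered 14, with 4 above 0, 10 below and a median of -0.095. The smallest p-values there were those of ELOC (-0.49 ± 0.21, SE) and RBX1 (-0.80 ± 0.34), each with overlapping arrays. Both encode subunits of the VHL ubiquitin ligase, whose other measured subunits VHL (-0.07 ± 0.17), CUL2 (-0.005 ± 0.165) and ELOB (-0.28 ± 0.24) had unadjusted p-values of 0.691, 0.976 and 0.258.

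On the metabolic side, the 18 other isozymes of glycolysis had a median difference of 0.007 and 0 genes at an unadjusted p under 0.05. PGAM2, the muscle mutase, differed by -0.495 ± 0.363 (SE) and BPGM, the bisphosphoglycerate mutase, by -0.135 ± 0.191. The tricarboxylic acid cycle, which burns pyruvate carbon in mitochondria, had 12 of 17 differences above 0 and a median of 0.04. Malate dehydrogenase MDH2 (0.285 ± 0.125) and the succinate dehydrogenase subunit SDHC (0.205 ± 0.152) had the smallest p-values there. For pyruvate entry into mitochondria and pyruvate dehydrogenase the median over 13 genes was 0.01, with PDHX (0.25 ± 0.16) and the phosphatase PDP1 (-0.275 ± 0.253) first.

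The pentose phosphate pathway (7 genes) had a median of -0.005, with RPIA at -0.32 ± 0.28 (SE) and TKT at 0.13 ± 0.12. Gluconeogenesis (7 genes) had one of 0.11, with PCK2 at 0.565 ± 0.319 and FBP2 at 0.56 ± 0.37. FBP2 was dim, at a mean level of 2.63, with overlapping arrays. The 14 other glucose and lactate transporters had a median of -0.062. Among these the lactate carrier SLC16A7 (0.41 ± 0.20) and the sodium-glucose cotransporter SLC5A1 (0.615 ± 0.320) had the smallest p-values, both with separate groups. Groups were separate for 8 of the 14 (57.1%), 3 higher and 5 lower, against 36.5% of all probe sets. This was the highest share of the 8 lists, the others lying between 0% and 35.7%. Over all 135 genes of these lists the groups were separate for 32 (23.7%). SLC5A1 was dim, at a mean level of 3.67. A p above the threshold does not show that any of these genes was equal in both groups.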

How the data were processed

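RNA of 4 samples, 2 with H2BK120R and 2 with vector, was profiled on a whole-transcript array, and the titles gave groups and replicate numbers. Per probe set and array the authors deposited 1 log2 level, already normalized. MAS5 is named without a version in the submitters' processing notes, and the labels record neither background correction nor probe summary. The base of 2 and the normalization are inferred from the values (1.56 to 19.15, near-equal medians), and another base would rescale every difference. Precision is limited by the 2 arrays per group. No array duplicated another: 207 to 309 of 21448 values were identical in a pair.

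The deposited values of the groups were fitted without further scaling in limma 3.58.1 under R 4.3.3, using lmFit and trended eBayes. The tests are two-sided, and the Benjamini-Hochberg step covers the whole table of 21448 probe sets. Residual degrees of freedom were 2 and prior ones 8.95. The procedure was tested on simulated data. Genes were named through the platform annotation, and all 33 gene IDs matched the same symbol in RefSeq. Each of the 33 genes had 1 probe set. Members, roles, lists and pairs were chosen with earlier results of these data known. Every measured member is named. Levels on each array are given where groups do not overlap, where the unadjusted p is under 0.1, for the 3 brightest genes of a role, and for HIF1A, EPAS1, HK2, LDHA, PKM, SLC2A1 and VEGFA. EGLN3 was added because its difference was the largest. Of each further list the 2 genes with the smallest p are named. MIF, PNRC1, SLC2A14, VHL, CUL2 and ELOB were added after their values were seen. Lists are described by counts and medians, without a test. Alternatives were quantile normalization, equal medians, filters on dim probe sets, only named probe sets, other variance moderation, the replicate number as a block, leaving out each array, and other bounds of the glycolytic and hypoxia-induced groups. Figures were drawn with matplotlib 3.10.9.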

Additional observations from a re-analysis of the deposited data

How the results depend on the processing

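Under each setting tried, 0 of the 33 genes passed the adjusted threshold in limma. Their adjusted p came down to 0.425 at the least, without vector replicate 2. Genes with an unadjusted p under 0.05 numbered 2 as reported, 1 without the variance trend, and between 0 and 5 with 1 array left out. Those fits let the lone array take its spread from the other group. The genes whose groups did not overlap numbered 12 as reported, 14 after quantile normalization and 13 with equal medians, settings applied to this count after seeing the data. The share of 36.5% of all probe sets is for the deposited values and was not computed under these scalings. The median difference of the glycolytic enzymes was -0.015 as reported and between -0.105 and 0.11 with 1 array left out. That of the hypoxia-induced genes was between -0.057 and 0.01, and 0.04 for the wider set. The gap between the medians was between -0.09 and 0.143 with 1 array left out. The median over the whole table was -0.0013 after quantile normalization and -0.015 with equal medians. The replicate block gave 3 genes at an unadjusted p under 0.05, again without a share over all probe sets, and 0 past the threshold. With 2 numbers the pairing could not be established: the deviations of same-numbered arrays correlated at 0.141. For 15 genes, none with a difference above 0.26 in size, the sign turned in 25 of 390 refits. PFKM was at -0.034 after quantile normalization and -0.005 with equal medians. With 1 array left out the values ran from -0.21 to 0.18 for HK1, -0.12 to 0.11 for GPI, -0.01 to 0.16 for PFKL, -0.175 to 0.195 for PFKM, -0.11 to 0.03 for ALDOA, -0.035 to 0.145 for GAPDH, -0.455 to 0.115 for PGAM1, -0.095 to 0.065 for ENO1, -0.05 to 0.45 for ENO2, -0.13 to 0.65 for PFKFB3, -0.185 to 0.085 for SLC2A1, -0.235 to 0.065 for ADM, -0.10 to 0.09 for BNIP3L, -0.12 to 0.05 for ANKRD37 and -0.12 to 0.33 for P4HA1. For each change the cause was not tested. Leaving out the dimmest 50% of probe sets removed 6 of the 33 genes. A dimmer probe set per gene and another pseudocount were not run, as each gene had 1 probe set and the values are log2.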
